A study of Homo sapiens with 12 samples.

Results

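The 10 Jumonji histone demethylase genes KDM2B, KDM3A, KDM3B, KDM4A, KDM4B, KDM4C, KDM5A, KDM5B, KDM5C and KDM6B were followed through a time course of hypoxia in HCT116 cells, an established human colorectal cancer cell line. They were chosen by gene name, with earlier results of these data known, out of 56537 names in the deposited transcript table. Of these names 16680 were high enough to test, and all 10 genes were among those tested. For each gene, the abundances of its transcripts that matched a reference transcript (class code =) or shared at least 1 splice junction with one (class code j) were added up. This took in 219 transcripts in 133 start-site groups, a group being the transcripts that begin at the same assembled start. Of these, 148 transcripts were above 0 in at least 1 library, and 50 transcripts and 40 start-site groups passed the filter of 0.5 FPKM in 3 libraries (fragments mapped to a transcript, scaled to its length and to the mapped fragments of the library). A member that stays below that filter is not described by any test here.

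All cells had been plated 24 h before the course began. The 0 h cells were held at 21% oxygen, and the other groups were taken after 1 h, 2 h and 24 h at 1% oxygen, with 3 libraries at each of the 4 time points. Poly(A) RNA was sequenced in 100-base paired reads with strand information. The labels only number the replicates, which the study describes as biological, and the p-values measure the spread between these libraries. No culture kept at 21% oxygen for the later times was analysed here, so at 24 h the time in culture and the time in hypoxia cannot be told apart.

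Jumonji demethylases remove methyl groups from lysines of histone tails. They hold an iron atom in the JmjC domain and use molecular oxygen and alpha-ketoglutarate as co-substrates, so oxygen is consumed in each round of catalysis. The KDM3 enzymes act on lysine 9 of histone H3, the KDM4 enzymes on lysine 9 and lysine 36, the KDM5 enzymes on lysine 4, KDM6B on lysine 27, and KDM2B, a partner of a Polycomb complex at CpG islands, is best known for lysine 36. KDM3A is a textbook target of the hypoxia-inducible factors (HIF), which bind a core of ACGTG or GCGTG in the regulatory DNA of their targets.

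Both cores were looked for on both strands in the 250 bases before and 50 bases after the start of each gene's leading reference transcript, in the GRCh37 genome with GENCODE starts. Such a window could be read for 16200 of the 16680 genes tested, and 57.2% of all windows held at least 1 core. Of the 10 demethylase genes, 7 held one: ACGTG stood in 2 windows (23.8% of all windows) and GCGTG in 7 (45.6%). The windows of KDM3B, KDM5C and KDM6B held neither. Of the genes higher at 24 h by the thresholds given below, 55.9% held a core, and of the genes that were not changed by those thresholds 56.4% did. The matches of all 7 genes are printed to show what each window holds, with 12 bases on each side on the strand of the gene. Capitals mark the core, and a core on the other strand reads CACGT or CACGC. A run of CACGTG holds ACGTG on both strands and was counted as 2 matches, of which 1 is printed. A GCGTG of KDM4B that begins 224 bases before the start is not printed, since its surroundings overlap those of the first KDM4B match.
KDM3A, chr2:86668456-86668484, first core base 116 bases before the start: ccgggaggctgtGCGTGtcttgtgagagc
KDM4B, chr19:4968872-4968900, 240 bases before: cggtcagcgggcACGTGggtgggcgccgg
KDM4B, chr19:4969035-4969063, 77 bases before: atgggcgctcggGCGTGgatccggcagcc
KDM4C, chr9:6757865-6757893, 96 bases before: cccaaagcaagaGCGTGccgggcaccttt
KDM4C, chr9:6757899-6757927, 62 bases before: gtttgtaagcccACGTGactcaccaagtg
KDM4C, chr9:6757931-6757959, 30 bases before: gccccagcggtcACGTGacggcgcgcgcg
KDM5B, chr1:202777597-202777625 (minus strand), 4 bases before: cggaggcgcacgGCGTGggcttgcggcga
KDM4A, chr1:44115729-44115757, 79 bases before: ggtggctgcggcGCGTGctcattggctgg
KDM5A, chr12:498624-498652 (minus strand), 154 bases before: caagggcgagctGCGTGgagtcgttggac
KDM2B, chr12:121947657-121947685 (minus strand), 164 bases before: ttcacccaccagCACGCcctctgaggacc
KDM4C held 5 matches and KDM4B 4, whereas KDM2B, KDM3A, KDM4A, KDM5A and KDM5B held 1 each. A match is a string of letters in a window and no evidence of binding, and binding was not measured here.

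The libraries were checked first. All 8 hypoxia target genes on a list rose at 24 h, with a median difference of 3.39 on the log2 scale. Among them were NDRG1 at 5.34, CA9, a cell-surface carbonic anhydrase, at 3.13 and VEGFA, the angiogenic growth factor, at 1.90. The list was chosen with earlier results of these data known, so its rise is no independent check. Under the TPM scaling described below 7 of the 8 still rose, and VEGFA at 1.02 did not pass (adjusted p = 0.045, limma). All 6 epithelial markers were expressed in every group, among them KRT8 at 988 ± 190 FPKM at 0 h and 880 ± 93.6 at 24 h (SD, n = 3), and at 24 h CDH1 rose by 1.76, CLDN4 by 1.60 and KRT19 by 0.99 (by 0.88, 0.73 and 0.12 under TPM scaling, where none passed). Of 8 markers of other cell types, PTPRC, CD3E, PECAM1, VWF, COL1A2 and PDGFRB had mean levels no higher than 0.0901 FPKM at any time, while CD68 went from 2.01 ± 0.27 to 10.2 ± 3.68 FPKM and COL1A1 from 1.92 ± 0.206 to 6.87 ± 1.67. The part of these 2 in the results was not tested. Correlations of log2 levels between libraries ran from 0.965 to 0.988 within time points and from 0.905 to 0.935 between 0 h and 24 h. The study gives the sequencing depth of its libraries, but the files hold no read counts, so the number of reads behind each value is unknown here.

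Most of the 10 genes were higher after 24 h. The summed level of the 10 genes was 103, 106 and 111 FPKM in the 0 h libraries and 280, 286 and 324 FPKM at 24 h, which is 2.78 times the 0 h mean. Of the 10 genes, 7 rose at 24 h at an adjusted p under 0.01, against 18.3% of all genes tested, and none fell, against 23.2% (limma on log2(FPKM + 0.5), Benjamini-Hochberg adjustment over all genes). Since the 10 genes were chosen with earlier results known, the gap to all genes is a description and no test of the group. KDM3A, KDM4B, KDM4C, KDM5B, KDM5C and KDM6B also passed the fold threshold of 1 on the log2 scale, which 8.76% of all genes did upwards. The median difference of the 10 genes was 1.25, beside -0.05 over all genes tested. In the same 7 genes, every 24 h library lay above all 9 earlier libraries, as was so for 20.5% of all genes. When FPKM values were rescaled so that all transcripts of a library add up to the same total (TPM), the median of all genes moved to -0.67 and 2 genes, KDM3A and KDM4B, still rose. Under it the differences of KDM2B, KDM3B, KDM4A and KDM5A turned negative, and none of these passed.

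**Figure D1:**
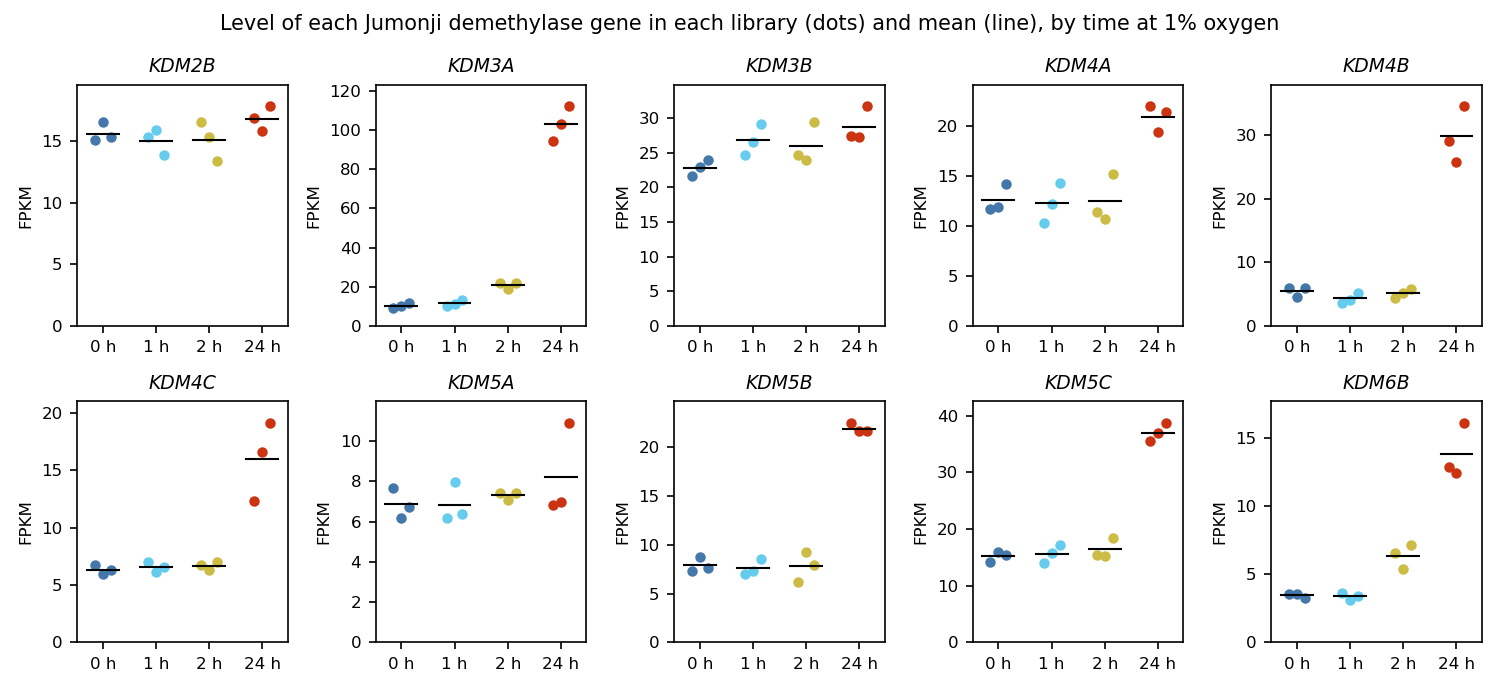
FPKM of each of the 10 genes (y axis, from 0, own scale per gene) in each of the 12 libraries (dots) at 0 h, 1 h, 2 h and 24 h, with the mean of 3 libraries as a line. KDM3A goes from a mean of 10.3 to 103, while KDM2B stays between 13.4 and 17.8 in all libraries.

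KDM3A (chr2:86667770-86719839, plus strand) and KDM3B (chr5:137688374-137772717, plus strand) remove mono- and dimethyl marks from lysine 9 of histone H3, a mark of silent chromatin. For KDM3A the 0 h libraries gave 9.18, 9.91 and 11.9 FPKM, the 1 h libraries 10.0, 11.2 and 13.3, the 2 h libraries 21.9, 19.0 and 21.7, and the 24 h libraries 94.6, 103 and 112. All 2 h libraries lay above all 0 h and 1 h libraries, and all 24 h libraries lay far above both. The 24 h difference was 3.26 ± 0.13 (log2, SE; adjusted p = 1.3e-08, limma), the largest of the 10 genes, and the means differed 9.99-fold. KDM3A ranked 5 of the 10 genes in mean level at 0 h and 1 at 24 h, where it made up 34.8% ± 1.1 of their summed FPKM against 9.65% ± 0.934 at 0 h (SD, n = 3).

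For KDM3B the 0 h libraries gave 21.6, 22.9 and 24.0 FPKM, the 1 h libraries 24.7, 26.5 and 29.1, the 2 h libraries 24.7, 24.0 and 29.4, and the 24 h libraries 27.5, 27.3 and 31.7. It was the most abundant of the 10 genes at 0 h, and its 24 h libraries lay above those at 0 h but overlapped those at 1 h and 2 h. Its 24 h difference of 0.33 ± 0.11 did not pass the test (adjusted p = 0.021, limma). The ratio of KDM3A to KDM3B within a library, which no rescaling between libraries can change, ran from 0.426 to 0.494 at 0 h and from 3.44 to 3.76 at 24 h.

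The KDM4 enzymes remove di- and trimethyl marks from lysine 9 and lysine 36 of histone H3. KDM4B (chr19:4969124-5153609, plus strand) stood at 5.94, 4.52 and 5.98 FPKM in the 0 h libraries, 3.68, 4.04 and 5.23 in those of 1 h, 4.38, 5.17 and 5.86 in those of 2 h, and 29.1, 25.8 and 34.5 in those of 24 h. The 3 earlier groups overlapped and the 24 h libraries were all higher, by 2.34 ± 0.17 (log2, SE; adjusted p = 7.5e-07, limma). KDM4B ranked 9 of the 10 genes at 0 h and 3 at 24 h, where its libraries overlapped those of KDM3B.

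KDM4C (chr9:6720863-7175648, plus strand) stood at 6.74, 5.93 and 6.29 FPKM in the 0 h libraries, 7.03, 6.11 and 6.53 in those of 1 h, 6.77, 6.29 and 7.01 in those of 2 h, and 12.3, 16.6 and 19.1 in those of 24 h. All 24 h libraries were higher, by 1.25 ± 0.15 (adjusted p = 2.1e-05, limma). KDM4A (chr1:44115820-44171189, plus strand) stood at 11.7, 11.9 and 14.2 FPKM in the 0 h libraries, 10.3, 12.2 and 14.3 in those of 1 h, 11.4, 10.7 and 15.2 in those of 2 h, and 22, 19.4 and 21.4 in those of 24 h. The earlier groups overlapped and lay below the last. Its difference of 0.71 ± 0.15 passed the test (adjusted p = 0.0018, limma) but not the fold threshold, and it turned to -0.13 under TPM scaling (adjusted p = 0.82).

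The KDM5 enzymes remove methyl marks from lysine 4 of histone H3, a mark of active promoters. KDM5C (chrX:53205465-53254604, minus strand) stood at 14.2, 15.9 and 15.5 FPKM in the 0 h libraries, 14, 15.7 and 17.1 in those of 1 h, 15.5, 15.2 and 18.4 in those of 2 h, and 35.5, 36.9 and 38.7 in those of 24 h. The 24 h libraries were all higher, by 1.26 ± 0.11 (adjusted p = 2.4e-06, limma). KDM5C has a closely related copy on the Y chromosome, whose level is not given here, and reads that fit both genes could be divided between them.

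KDM5B (chr1:202693623-202777615, minus strand) stood at 7.35, 8.73 and 7.68 FPKM in the 0 h libraries, 7.0, 7.36 and 8.55 in those of 1 h, 6.21, 9.28 and 7.90 in those of 2 h, and 22.5, 21.7 and 21.7 in those of 24 h. All 24 h libraries were higher, by 1.42 ± 0.14 (adjusted p = 6.1e-06, limma). KDM5A (chr12:389223-498486, minus strand) stood at 7.69, 6.18 and 6.71 FPKM in the 0 h libraries, 6.16, 7.97 and 6.38 in those of 1 h, 7.44, 7.08 and 7.40 in those of 2 h, and 6.84, 6.99 and 10.9 in those of 24 h. Its groups overlapped, and the difference of 0.22 ± 0.17 did not pass the test (adjusted p = 0.29, limma). Without 24 h replicate 3 it was 0.02. KDM5A was last of the 10 genes at 24 h.

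KDM6B (chr17:7737535-7758114, plus strand), which removes the Polycomb mark on lysine 27 of histone H3, was the least abundant of the 10 genes at 0 h, at 3.54, 3.56 and 3.25 FPKM. The 1 h libraries gave 3.66, 3.11 and 3.37, those of 2 h 6.53, 5.40 and 7.18, and those of 24 h 12.9, 12.4 and 16.1. As with KDM3A, the 2 h libraries lay between the earlier and the later ones without overlap. The 24 h difference was 1.85 ± 0.14 (adjusted p = 1e-06, limma).

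KDM2B (chr12:121866899-122018928, minus strand) stood at 15.1, 16.5 and 15.3 FPKM in the 0 h libraries, 15.3, 15.9 and 13.9 in those of 1 h, 16.5, 15.3 and 13.4 in those of 2 h, and 16.9, 15.8 and 17.8 in those of 24 h. The groups overlapped, with a difference of 0.10 ± 0.10 (adjusted p = 0.43, limma). Its 0 h libraries overlapped those of KDM5C, and at 24 h KDM5C stood at 37.0 ± 1.6 FPKM and KDM2B at 16.8 ± 1.01 (SD, n = 3).

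All 7 calls were at 24 h. At 1 h none of the 10 genes passed the test, where 0.006% of all genes rose, and none had an unadjusted p under 0.05 (limma; 769 of all genes did). The 1 h differences ran from -0.32 for KDM4B to 0.22 for KDM3B. At 2 h none of the 10 genes passed either, where 0.024% of all genes rose, but KDM3A and KDM6B had an unadjusted p under 0.05, as did 2547 of all genes. The 2 h difference of KDM3A was 0.99 ± 0.13 (adjusted p = 0.012, limma). Same-numbered libraries of 0 h and 2 h deviated together, and with the replicate number as a block the adjusted p of KDM3A was 0.0047, past the threshold. The 2 h difference of KDM6B was 0.79 ± 0.14 (adjusted p = 0.037, and 0.025 with the block). Under TPM scaling, where the median of all genes at 2 h moved to -0.88, both 2 h differences turned negative, to -0.07 for KDM3A and -0.17 for KDM6B. KDM3A, KDM3B and KDM6B had all 2 h libraries above all 0 h libraries, as did 12.2% of all genes. KDM3B had a 2 h difference of 0.18, and the other 7 genes lay between -0.08 and 0.10. Set against 2 h instead of 0 h, the same 7 genes were higher at 24 h, as were 16.3% of all genes.

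**Figure D2:**
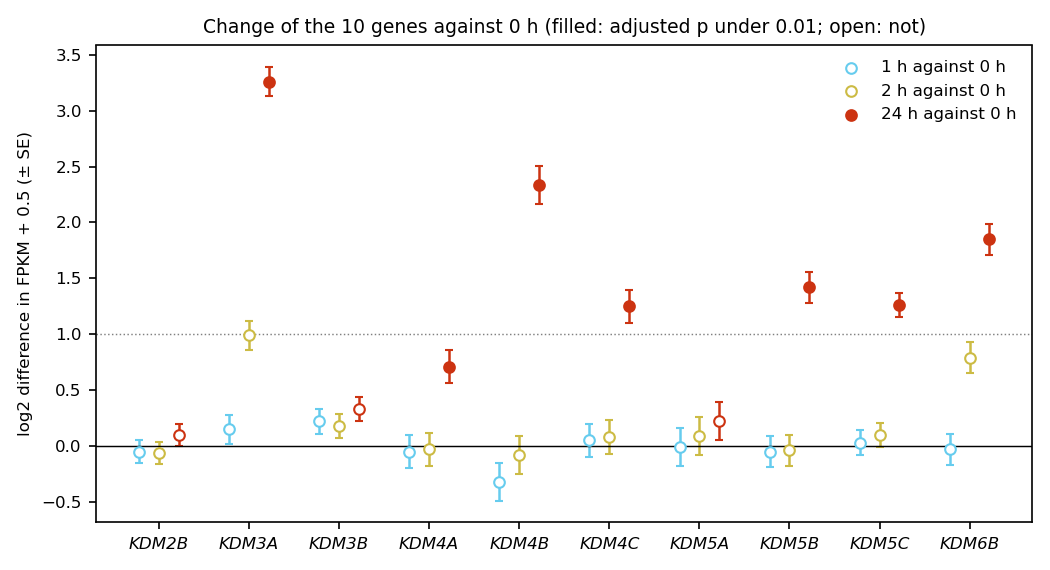
Difference against 0 h for each of the 10 genes (log2 of FPKM + 0.5, y axis) at 1 h, 2 h and 24 h; points are limma estimates from 3 libraries a group, bars are standard errors, and filled points have an adjusted p under 0.01. At 24 h 7 genes are filled, from KDM4A at 0.71 to KDM3A at 3.26, and at 1 h and 2 h none is.

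Close relatives ended at different levels relative to each other. Among 7 pairs of relatives, the ratio within a library was compared by an exact permutation test, two-sided. With 3 libraries against 3 that test cannot go below 0.10, and against all 9 earlier libraries it cannot go below 0.0091. The KDM3A to KDM3B ratio went from 0.451 ± 0.0375 before hypoxia to 3.58 ± 0.166 after 24 h (SD, n = 3; exact permutation against the 9 earlier libraries, adjusted p = 0.013). KDM4B to KDM4A went from 0.436 ± 0.0654 to 1.42 ± 0.163, so KDM4B passed from below KDM4A to above it in every 24 h library (adjusted p = 0.013, same exact test). KDM4B to KDM4C went from 0.865 to 1.91 and KDM5A to KDM5B from 0.876 to 0.376, without overlap (adjusted p = 0.013 for each, same exact test). KDM5A to KDM5C went from 0.453 to 0.221 (adjusted p = 0.013, same exact test). KDM4C to KDM4A changed less, from 0.505 to 0.769, and 1 of its 24 h values, 0.557, lay among the 0 h values of 0.443 to 0.576 (adjusted p = 0.045, same exact test). KDM5C to KDM5B went from 1.93 to 1.69 (adjusted p = 0.042, same exact test). Between 0 h and 24 h alone the adjusted exact permutation p was 0.12 for 6 of the pairs and 0.20 for KDM4C to KDM4A.

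**Figure D3:**
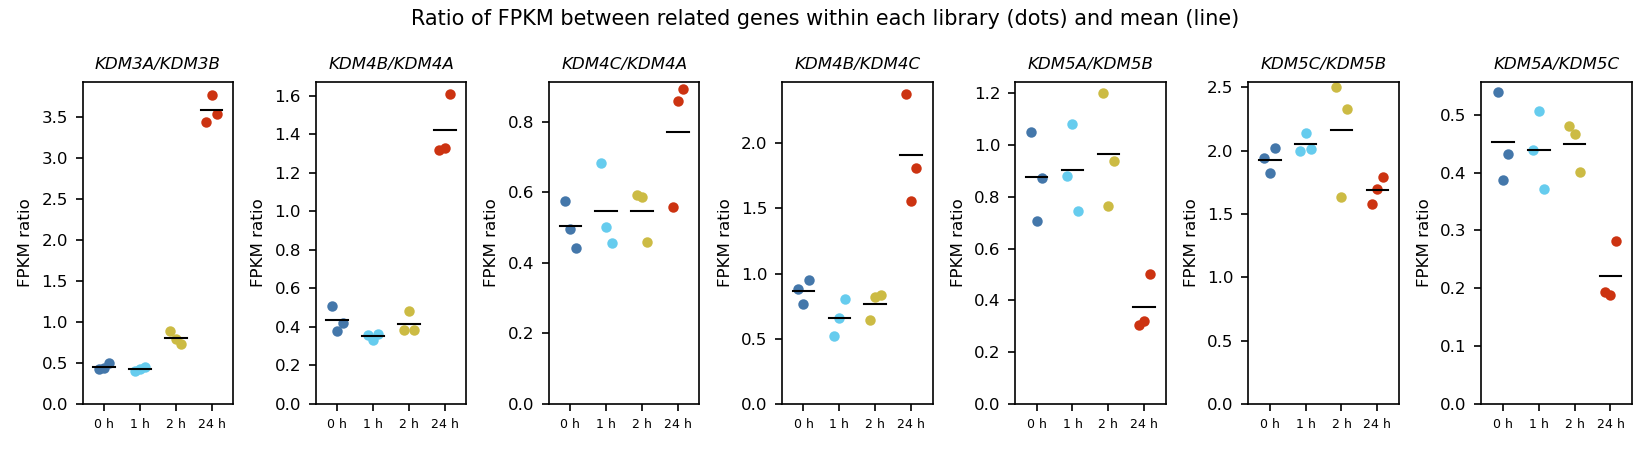
Ratio of FPKM between 2 related genes in each of the 12 libraries (dots; y axis from 0, own scale per pair), with the mean of 3 libraries as a line. KDM3A to KDM3B is between 3.44 and 3.76 at 24 h and at most 0.886 before, and KDM5A to KDM5B is between 0.305 and 0.502 at 24 h and at least 0.708 before.

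By mean share, the main start of a gene mostly stayed the main start. For 9 of the 10 genes the start-site group with the largest mean share at 0 h also had the largest at 24 h, the exception being KDM5B, where the order at 24 h differed between libraries. In KDM6B the largest group was TSS54501 in the first 0 h library and TSS54495 in the other libraries of both times. Of 40 groups tested 17 rose in level and none fell, where 9.42% and 11.9% of all groups did (limma, adjusted p under 0.01). Groups that passed the filter only through libraries after 0 h, such as TSS75041 of KDM3A and TSS12029 of KDM5B, could rise but hardly fall. The lead transcript of KDM3A, KDM3A-202 of 4621 bases and 1321 codons, went from 7.0 ± 1.47 to 89.3 ± 10.4 FPKM (SD, n = 3). Its start-site group TSS75037 held 68.4% ± 12.1 of the gene at 0 h and 87.2% ± 4.73 at 24 h, a change in use of 1.42 that did not pass the test (adjusted p = 0.13, limma). It passed with a pseudocount of 1 (adjusted p = 0.042) and without the second 0 h library (adjusted p = 0.026, limma). The main KDM4B group, TSS65690, went from 3.09 ± 0.399 to 21.8 ± 3.8 FPKM and rose by 2.63 ± 0.18 (adjusted p = 3.3e-06, limma). The main KDM6B group, TSS54495, rose by 2.05 ± 0.20 (adjusted p = 2.7e-05) and a second group, TSS54493, by 1.92 ± 0.33 (adjusted p = 0.00094, limma). In KDM5C, TSS151712, led by KDM5C-204, rose by 0.92, TSS151714, led by KDM5C-205, by 1.44, and TSS151716, the retained-intron transcript KDM5C-214, by 1.74 (adjusted p = 0.00047, 0.00065 and 0.0016, limma). In KDM4C, TSS131532, led by KDM4C-202, rose by 1.39 (adjusted p = 0.0012, limma). The differences of 1.06 for TSS131536 and 0.90 for TSS131533 did not pass (adjusted p = 0.094 and 0.033, limma).

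KDM2B, which did not pass the test as a gene, drew most of its signal from an internal start. The transcript KDM2B-214, with 704 codons against 1336 in KDM2B-202, stood at 9.22 ± 0.559 FPKM at 0 h and 9.21 ± 0.571 at 24 h, 59.0% and 54.9% of the gene. KDM2B-202 held 14.6% and 18.2%. TSS34098, led by a class j form of KDM2B-201, held 13.7% at 0 h and 14.6% at 24 h. None of the 4 KDM2B groups tested passed a test of level or share.

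For the groups described next, each with at least 10% of its gene at some time, no change in use passed the test, which does not show that their shares stayed the same. TSS107645, led by KDM3B-201, held 62.1% ± 12 of KDM3B at 0 h and 61.9% ± 8.74 at 24 h, and TSS107649, a 3034-base transcript, 21.0% ± 2.1 and 24.5% ± 11.5. TSS1871, the transcript KDM4A-201, went from 82.5% ± 4.17 of KDM4A to 75.9% ± 5.65, and TSS1872, led by the 281-codon KDM4A-202, from 9.38% ± 1.12 to 17.7% ± 3.95, a change in use of 0.74 ± 0.29 (adjusted p = 0.13, limma). Both KDM4A groups rose in level, by 0.59 and 1.30 (adjusted p = 0.0098 and 0.0064, limma); the first call was lost without any one of the 6 libraries and the second without any one of 5 of them. In KDM4C, KDM4C-205 (TSS131536, 743 codons) held 26% and 24.8%, and TSS131531 12.8% and 7.32%, a change in use of -1.03 that did not pass (adjusted p = 0.056) but did with a pseudocount of 1 (adjusted p = 0.013, limma). In KDM5A, TSS30622 held 62.4% ± 13 and 70.4% ± 11.7, and the 456-base KDM5A-207 (TSS30625), which has no coding sequence defined, 27.6% ± 9.24 and 15.3% ± 9.06. Some groups were above 10% at a single time: TSS65693 of KDM4B held 16.3% at 1 h and 0.103% at 0 h, and the 565-base KDM3A-204 (TSS75038) 16.7% at 1 h and 7.05% at 0 h. The 24 h change in use of TSS65693 passed without the second 24 h library, at -2.43 (adjusted p = 0.035, limma). That negative use is not a fall in level: the 24 h level difference of TSS65693 was 0.86, and 0.02 to 1.3 without single libraries. A 0 h share of 0.103% could hardly fall, and the pseudocount weighs heavily on so low a group. The 24 h change in use of TSS75038 was -2.55 (adjusted p = 0.070, limma), and it passed with a pseudocount of 1 (adjusted p = 0.012) and without the first 24 h library (adjusted p = 0.029). The use of TSS65690 of KDM4B passed with a pseudocount of 1 (1.09, adjusted p = 0.031), and that of TSS30623 of KDM5A with class = transcripts only (0.97, adjusted p = 0.044, limma).

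Shares of the gene moved in a few start-site groups. Tested as log2 of the group's FPKM over that of the gene's other groups, each plus 0.5, 8 of the 40 groups changed at 24 h, 1 up and 7 down, where 9.74% of all groups changed and 4.71% went down (limma, adjusted p under 0.05). Of the 7 with lower use, 6 also had a lower mean share and 1, TSS75041 of KDM3A, a higher one. In KDM5B the order of the main groups changed in the mean but not in every library. Its group TSS12030, a single class j transcript of 2220 bases, stood at 5.25, 6.02 and 5.11 FPKM at 0 h and at 9.22, 8.94 and 5.77 at 24 h. TSS12026, the reference transcript KDM5B-202 of 6449 bases, stood at 2.07, 1.89 and 2.03 FPKM at 0 h and at 9.21, 9.44 and 11.4 at 24 h. In the first 24 h library the groups were level, in the second they were close, and in the third TSS12026 was clearly the higher. TSS12026 rose in level by 2.07 (adjusted p = 1.7e-05), whereas the difference of 0.48 for TSS12030 did not pass (adjusted p = 0.10, limma). A pair of smaller groups rose as well, TSS12025, led by KDM5B-203, by 1.66 and TSS12029, led by KDM5B-201, by 1.90 (adjusted p = 0.0014 and 0.00048, limma), and their shares went from 3.41% to 8.70% and from 0.803% to 7.58%. At 0 h TSS12029 was under 0.5 FPKM, so it passed the filter only through later libraries. Its log2 change ran from 1.3 to 3.45 between settings. The short transcript held 68.9% ± 2.45 of the gene at 0 h and 36.3% ± 8.36 at 24 h, and the long one 25.4% ± 3.38 and 45.7% ± 6.13 (SD, n = 3). The log2 change in use was -1.83 ± 0.32 for TSS12030 (adjusted p = 0.0061) and 1.14 ± 0.27 for TSS12026 (adjusted p = 0.026, limma). The second call was lost without any one of 5 of the 6 libraries compared. With class = transcripts only, TSS12030 is left out by construction, and KDM5B rose by 2.28 as a gene.

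In KDM6B, group TSS54501, led by a class j transcript of 7615 bases, stood at 1.27, 0.818 and 0.511 FPKM at 0 h and at 0.466, 0.299 and 0.585 at 24 h while the gene rose, and its share went from 24.8% ± 10.2 to 3.22% ± 0.709. The change in use was -2.71 ± 0.32 (adjusted p = 0.0012, limma). KDM4B-203 (TSS65694) went from 21.6% ± 5.32 to 6.99% ± 6.07 of its gene, a change of -2.15 ± 0.49 (adjusted p = 0.020, limma), and that call was lost without any one of 4 of the 6 libraries.

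The other 4 calls were in short or rare groups near the pseudocount. In KDM3A, TSS75044, the 448-base transcript KDM3A-207, was listed at 1.89, 0 and 1.25 FPKM at 0 h and at 1.31, 0 and 0 at 24 h, a mean share of 10.4% and 0.461%, with a change in use of -4.25. TSS75041, the retained-intron transcript KDM3A-208, stood at 0, 0 and 0.147 FPKM at 0 h and at 0.869, 0.375 and 2.19 at 24 h. Its level rose by 1.44, a call lost without any one of 5 of the 6 libraries, and its mean share went from 0.414% to 1.08%, yet its use is given as -1.91, since 0.5 was added to both sides of the ratio. TSS75042 of KDM3A, with a use of -2.51, went from 2.36% to 0.819% of its gene, and TSS151721 of KDM5C, with a use of -1.64, from 3.30% to 0.822%. With a pseudocount of 0.1 the groups TSS12026, TSS12030 and TSS54501 passed, 3 in all.

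**Figure D4:**
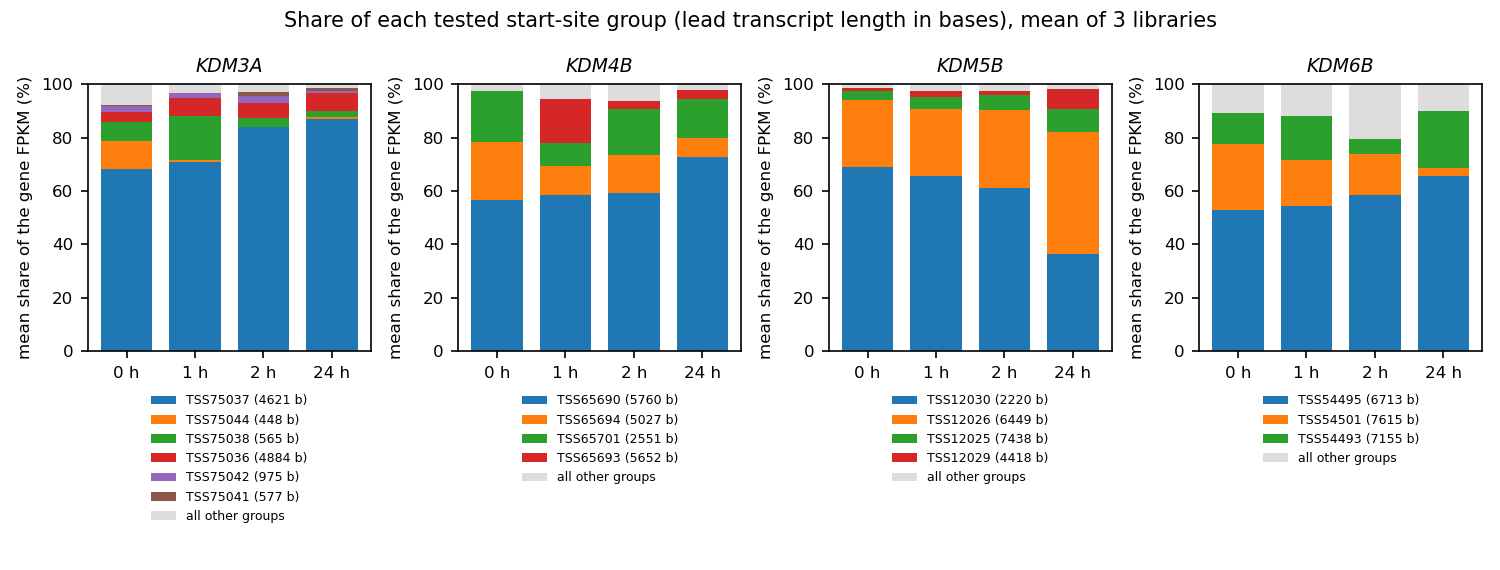
Mean share of the gene's FPKM (y axis, percent, 3 libraries a time point) held by each start-site group tested, for KDM3A, KDM4B, KDM5B and KDM6B; colours are groups, with the length of the lead transcript in bases, and grey is all other groups. The 2220-base KDM5B group shrinks from 68.9% to 36.3%, and the 7615-base KDM6B group from 24.8% to 3.22%.

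Among single transcripts, 12 of 50 changed in use at 24 h, 2 up and 10 down, where 11% of all transcripts changed and 5.39% went down (limma, adjusted p under 0.05). Of the 10 with lower use, 8 had a lower mean share and 2 a higher one. The 2 that went up were KDM5B-202 and a 17143-base form of KDM5A-201, which went from 1.77% ± 1.34 to 10.7% ± 3.11 of KDM5A (log2 change 1.01 ± 0.28, adjusted p = 0.040, limma). That transcript was at most 0.997 FPKM in any library, and its call was lost without any one of 5 of the 6 libraries. The 10 with lower use included KDM4B-203, KDM5C-210 and class j transcripts of KDM4C, KDM5B, KDM5C and KDM6B. The other 4 were KDM3A transcripts of a noncoding type: KDM3A-205, a target of nonsense-mediated decay, KDM3A-207, KDM3A-208 and KDM3A-213. The mean share of KDM3A-205 went from 0.577% to 0.692% and that of KDM3A-208 from 0.414% to 1.08%, so for these the negative use comes from the added 0.5 and not from a lower share. With a pseudocount of 0.1 the calls of KDM3A-205, KDM3A-208 and KDM3A-213 were lost (adjusted p = 0.11, 0.68 and 0.33, limma). So were those of KDM4B-203, the KDM4C transcript and KDM5C-210 (adjusted p = 0.068, 0.17 and 0.15, limma). The call of the KDM4C transcript was also lost without 0 h replicate 1 or 2 or 24 h replicate 2 or 3. That of KDM5C-210 was also lost without 0 h replicate 2 or 3.

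Taken over all its transcripts of a noncoding type (retained introns, decay targets and transcripts with no coding sequence defined), KDM3A had 1.99, 1.63 and 2.36 FPKM in the 0 h libraries, 0.501, 0.595 and 0.823 in those of 1 h, 1.92, 1.15 and 1.81 in those of 2 h, and 4.35, 3.27 and 4.41 in those of 24 h. The noncoding share of the gene began at 19.4% ± 2.65, and it was 5.50% ± 0.628 after 1 h, 7.73% ± 1.48 after 2 h and 3.91% ± 0.706 after 24 h (SD, n = 3). The 0 h libraries lay above those of every later time, the nearest being 16.5% against 8.79%. In the 0 h mean, the 448-base KDM3A-207 accounted for 10.4% of the gene, although it was absent from the second 0 h library. The 24 h change against the coding part was -2.65 ± 0.24 (adjusted p = 0.00048, limma), and of all genes tested 10.8% had a change in either direction and 3.25% a change downwards. Of the 6 genes whose noncoding part was high enough to test, KDM3A was the one that changed. KDM5A went from 27.6% ± 9.24 to 15.8% ± 9.83 (log2 change -0.99 ± 0.36, adjusted p = 0.10, limma), KDM5C stood at 12.9% ± 2.49 and 15.2% ± 2.43, and KDM3B at 11.7% ± 8.49 and 9.32% ± 1.45, with single 0 h libraries from 5.58% to 21.4%. Transcripts without a reference type held 39.1% of KDM5A at 0 h and 40.3% at 24 h, and 26.1% and 28.8% of KDM3B. They count in the total of a share but not in the test. The noncoding share of KDM2B was 2.71% ± 1.33 and 3.46% ± 0.576, and that of KDM4A 6.23% ± 2.58 and 4.43% ± 1.55.

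The 10 genes were set beside other genes with a JmjC domain and other enzymes of histone methylation. These lists too were chosen with earlier results of these data known, so differences between lists are only described. Of 20 other human JmjC genes, 18 were tested, and 5 rose and 5 fell, with a median of -0.11. That list also holds oxygenases that act on substrates other than histones. JHDM1D, now called KDM7A, rose by 1.69 ± 0.18, JARID2, which lacks demethylase activity and works with Polycomb, by 1.57 ± 0.14, and HR, the hairless corepressor, by 1.06 ± 0.20. JMJD6 rose by 0.89 ± 0.12, and JMJD1C, the relative of KDM3A and KDM3B, by 0.66 ± 0.16, which turned to -0.17 under TPM scaling. Among its other histone demethylases, KDM2A stood at 0.32, KDM6A at 0.33, PHF2 at 0.37 and PHF8 at -0.40, none of which passed, and under TPM scaling the first 3 turned to -0.52, -0.45 and -0.41. JMJD4 fell by 2.03 on the log2 scale, MINA, a ribosomal oxygenase, by 1.57, and HSPBAP1 by 1.1, and the others that fell were JMJD8 and TYW5, which modifies transfer RNA. HIF1AN, the JmjC oxygenase that hydroxylates HIF, stood at 26.3 ± 2.94 FPKM at 0 h and 21.5 ± 2.1 at 24 h and was not among those that passed. Of the flavin-dependent demethylases, which use no JmjC domain, KDM1A fell by 0.58 on the log2 scale (adjusted p = 0.00016, limma), from 98.7 ± 6.28 to 66 ± 2.71 FPKM, and KDM1B did not pass. Of 27 histone lysine methyltransferases, which add the marks, 26 were tested, and 6 rose and 4 fell, with a median of 0.16. SMYD3 rose by 1.07 ± 0.13, and SUV39H2, which writes lysine 9 methylation, fell by 1.21 on the log2 scale. Under TPM scaling, where the median of all genes was -0.67, the median of the 10 demethylase genes was 0.39, beside -0.67 for the other JmjC genes and -0.60 for the methyltransferases. None of the 5 other JmjC genes and 6 methyltransferases that rose still passed under it, with JHDM1D at 0.81 (adjusted p = 0.015), JARID2 at 0.69 (0.14), HR at 0.25 (0.60) and SMYD3 at 0.21 (adjusted p = 0.71, limma). SUV39H1, the relative of SUV39H2, fell by 0.87 and EZH2, which writes the lysine 27 mark that KDM6B removes, by 0.65 on the log2 scale. EZH1, the other writer of that mark, rose by 0.88 ± 0.17 (adjusted p = 0.00082), from 5.48 ± 1.27 to 10.4 ± 1.57 FPKM, a call lost under TPM scaling at 0.06 (adjusted p = 0.90, limma).

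**Figure D5:**
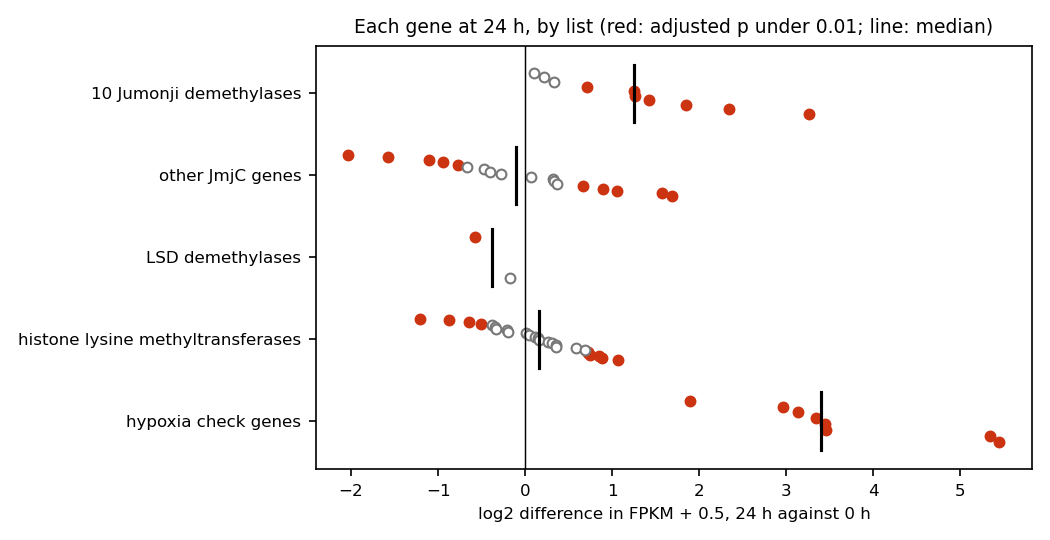
Difference at 24 h against 0 h (x axis, log2 of FPKM + 0.5) for each tested gene of 5 lists (rows); red points have an adjusted p under 0.01, open points do not, and the black line is the median of the list. The 10 Jumonji demethylases lie between 0.10 and 3.26 with a median of 1.25, and the 18 other JmjC genes between -2.03 and 1.69 with a median of -0.11.

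Over the 12 libraries, the genes whose log2 levels followed KDM3A most closely were EGLN1 (Pearson r = 0.9911), PPP1R3B (0.988), TFE3 (0.9874), ICAM5 (0.9865) and C4orf3 (0.9861), among 10268 genes compared with a mean of at least 5 FPKM. EGLN1 encodes the prolyl hydroxylase that marks HIF for destruction, and it stood at 18.3 ± 0.565 FPKM at 0 h and 70.7 ± 0.661 at 24 h. Among the other demethylase genes, r with KDM3A was highest for KDM6B (0.973) and KDM5C (0.967) and lowest for KDM2B (0.491) and KDM5A (0.477). These values are descriptions: the 12 points are 4 groups of 3 libraries, and the step between 24 h and the earlier times carries most of the spread.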

How the data were processed

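RNA-seq of 12 HCT116 libraries was used. The authors aligned reads to hg19, assembled and merged transcripts with Cufflinks and Cuffmerge, and deposited FPKM values per merged transcript and library for 293768 transcripts; the submitters' processing notes name CASAVA 1.8.2 and Cufflinks. Read counts were not used here, so no counting error is given. FPKM depends on how reads were divided among overlapping transcripts of a gene, so shares of isoforms are less certain than gene sums. Values were summed per gene name, start-site group or kind of transcript, and 0.5 was added before log2; fold changes of low genes are therefore understated. Features above 0.5 FPKM in at least 3 libraries were tested with limma 3.58.1 (R 4.3.3; lmFit, eBayes with trend, all 12 libraries, two-sided), since the values are not counts. "Rose" and "fell" mean an adjusted p under 0.01, with a log2 fold threshold of 1 where stated; share tests used 0.05. Ratios were tested with scipy 1.17.1. Transcript types, codons and coordinates come from GENCODE v44 lifted to GRCh37, the same assembly as hg19; the type of a class j transcript is that of its nearest reference. No library was left out.

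On simulated data, the gene test recovered 88.7% of genes changed by 1.5 and 97.9% of those changed by 2 on the log2 scale at 24 h among 16680 genes, with 0 false calls. The share tests recovered 50% of start-site groups and 43% of isoforms changed by 2, with 6 false calls each. The changed genes were drawn from those with a mean above 2 FPKM. The changed groups and isoforms were drawn from all tested, so these percentages are not comparable. Same-numbered libraries were checked for pairing by the correlation of their deviations from the group means: every pair was above 0.1 between 0 h and 2 h (0.129 to 0.362), but not between 0 h and 1 h (lowest 0.0954) or 0 h and 24 h (lowest -0.000785). Alternatives were other pseudocounts, filters, scalings, class codes, the replicate block, the 6 libraries of a contrast alone and each library left out; TPM over transcripts of at least 300 bases was added after the values had been seen. Named genes are the 10 members, their start-site groups and transcripts with at least 10% of the gene or a change in use, up to 6 differentially expressed genes a list, and the 5 genes most like KDM3A; KRT8, KRT19, HIF1AN, KDM1A, KDM2A, KDM6A, PHF2, PHF8, JMJD1C, JMJD6, JMJD8, TYW5, SUV39H1, EZH1 and EZH2 were named after their values were seen. The members and the lists were chosen with earlier results of these data known.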

Additional observations from a re-analysis of the deposited data

Results flagged for a closer look

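For 7 genes the change at 24 h differed from the change at 2 h, both taken against the same 0 h libraries, by a direct comparison of 24 h with 2 h (limma, adjusted p under 0.01; 16.3% of all genes were higher at 24 h than at 2 h by that test). The difference was 2.43 ± 0.17 for KDM4B, 2.28 ± 0.13 for KDM3A, 1.45 ± 0.14 for KDM5B, 1.18 ± 0.15 for KDM4C, 1.16 ± 0.11 for KDM5C, 1.06 ± 0.14 for KDM6B and 0.74 ± 0.15 for KDM4A (log2, SE). At 2 h none of the 7 had passed the test: KDM3A stood at 0.99 (adjusted p = 0.012, and 0.0047 with the replicate number as a block), KDM6B at 0.79 (adjusted p = 0.037, limma) and the other 5 between -0.08 and 0.10. Under TPM scaling the 2 h values of KDM3A and KDM6B were -0.07 and -0.17.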

How the results depend on the processing

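The 24 h calls of the 10 genes kept their side of the threshold, with no called value changing sign, in 234 of 240 cases tried, and leaving out any one library left 6 genes past both thresholds and 7 past an adjusted p under 0.01. Of the 6 exceptions, 1 was KDM3B with the replicate block, given below, and 5 were under TPM over all transcripts, where both counts dropped to 2: KDM4A reversed to -0.13 (adjusted p = 0.82), and KDM4C at 0.39, KDM5B at 0.55, KDM5C at 0.39 and KDM6B at 0.95 lost their calls. Of the members not called, KDM2B (-0.71), KDM3B (-0.51) and KDM5A (-0.55) also changed sign under that scaling and under no other setting. Transcripts shorter than 300 bases made up 57.0% to 87.6% of a library's FPKM, and with TPM over longer transcripts the median of all genes was -0.14 and the 7 genes kept their calls (KDM4A 0.62, adjusted p = 0.0080). At 2 h the count of members was 2 at an adjusted p under 0.05 with no fold threshold, 1 with a pseudocount of 0.1, with only transcripts above 0.5 FPKM in 3 libraries, with genes above 1 FPKM and with the replicate block, and 0 to 1 without single libraries (1 without the third 1 h library). Start-site use went from 8 calls to 3 with a pseudocount of 0.1, 4 above 1 FPKM, 5 with class = only and 4 with the 6 libraries alone, to 12 with a pseudocount of 1 and 10 with the replicate block, and to 5 to 9 without single libraries (5 without the third 0 h library). Isoform use went from 12 to 6, 4, 6 and 6 in the first 4 of these settings and to 13 and 14 in the next ones, and the noncoding count from 1 to between 1 and 2 (KDM5A was called without the third 24 h library). With class = only, the use of TSS12026 and of its transcript in KDM5B turned to -0.23, as the class j partner is left out. Over all genes, 3048 were past both thresholds at 24 h against 9228 at an adjusted p under 0.05 alone; the 2 h count of 3 ran from 0 to 390, start-site use of 3019 from 998 to 4604, isoform use of 6287 from 2418 to 9244, noncoding use of 733 from 264 to 1060, and start-site level of 8166 from 4950 to 8624; the causes were not tested.

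With the replicate number as a block, KDM3A passed the gene test at 2 h (adjusted p = 0.0047). At 24 h the numbers do not pair the libraries (mean correlation 0.0822), and with the block KDM3B at 0.33 was past the threshold (adjusted p = 0.0033); no other gene-level call of a member changed with it. With that block the use of TSS75037 and TSS75038 in KDM3A passed (1.42 and -2.55, adjusted p = 0.035 and 0.017), as did that of the lead transcript of each (1.37 and -2.55, adjusted p = 0.031 and 0.015). Depth limits what can be said of isoforms at or under 0.5 FPKM, and their errors cannot be computed without counts.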
